A study of Mus musculus with 72 samples.

Results

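Transcripts of 10 genes of polyamine metabolism were followed in the liver and in the suprachiasmatic nucleus (SCN), the hypothalamic nucleus that keeps daily time. The genes were taken by symbol from the gene count tables. Odc1, Amd1, Srm and Sms belong to synthesis, Sat1, Smox and Paox to acetylation and oxidation, and Oaz1, Oaz2 and Azin1 to the control of ornithine decarboxylase. All 10 were listed among the 22823 genes of liver and the 15759 genes of the SCN, and all 10 passed the low-count filter in both tissues. C57BL/6J mice, 8 to 12 weeks old per the labels' protocol, were housed singly and fed freely either a diet without methionine and choline (MCD) or its control of the same energy content. Feeding lasted 11 days, 10 of them in a cycle of light and darkness and the last in constant darkness. On that last day mice were killed every 4 h at 6 circadian times (CT), from CT0 to CT20. Liver RNA came from the left lobe, and the SCN was cut from brain sections with a laser. The design had 24 groups, 1 for each tissue, diet and time, of 3 libraries each, replicates 1 and 2 from males and replicate 3 from a female. The protocol text speaks of males alone, and the sample labels were followed.

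Polyamines are small, positively charged molecules that bind nucleic acids and are needed for growth. Ornithine decarboxylase (Odc1) makes putrescine from ornithine, and spermidine synthase (Srm) and spermine synthase (Sms) lengthen it to spermidine and spermine. Both synthases take their aminopropyl groups from decarboxylated S-adenosylmethionine, the product of S-adenosylmethionine decarboxylase (Amd1), so the pathway draws on the methionine that the MCD diet lacks. Spermidine/spermine acetyltransferase (Sat1) marks polyamines for export or for oxidation by the peroxisomal polyamine oxidase (Paox), while spermine oxidase (Smox) acts on spermine itself. Antizymes (Oaz1, Oaz2) bind ornithine decarboxylase, direct it to the proteasome and limit polyamine uptake, and the antizyme inhibitor (Azin1) binds the antizymes in its place.

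Translation of an antizyme requires the ribosome to change frame at a stop codon, a step that polyamines favour. Both sites are shown to define the genes measured here, since a transcript count does not report how often ribosomes pass them. They were read from GENCODE transcripts of build GRCm38 (bases 67 to 102 of transcript Oaz1-205 and bases 306 to 341 of transcript Oaz2-203), and the capitals mark the stop codon of the first frame.
Oaz1: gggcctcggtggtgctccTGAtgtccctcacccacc
Oaz2: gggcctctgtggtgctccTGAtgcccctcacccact

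Amd1 has a nearly identical copy, Amd2, and reads of one can be counted for the other. Their coding sequences differ at 1 of 1005 bases, the substitution G796C, counted from the A of the start codon as 1, with the base of Amd1 first. The capitals in the stretch from base 776 to 816 mark it.
Amd1: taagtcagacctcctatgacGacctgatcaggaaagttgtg
Amd2: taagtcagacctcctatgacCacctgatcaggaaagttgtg
A read from the coding sequence that does not cover this base cannot tell Amd1 from Amd2, so the values of Amd1 are uncertain. Odc1, Sms, Sat1, Oaz1 and Paox have copies of at least 95% identity as well, and the Paox copy Gm19680 matches it at 99.9% over 1358 bases. The exons of Paox also share 142 bases with Echs1, an enzyme of fatty acid oxidation on the opposite strand. Whether counting used the strand is not given in the sources used here.

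Libraries of liver held 52.6 to 86.7 M counted reads (median 64.4 M), those of the SCN 23.3 to 79.8 M (median 57.0 M). All 5 hepatocyte markers were listed in liver and all 7 markers of SCN neurons in the SCN, none of the latter with a diet effect. The liver library labelled control CT8 (a), a male, had the lowest control level of Paox (18.3 CPM) and Azin1 (65.2 CPM) and the highest of Smox (10.2 CPM) and Sat1 (77.2 CPM), each within the range of the MCD libraries. Whether its diet label is right was not decided, and it is kept as labelled. Where leaving it out changes a call on 1 of the 10 genes, both values are given. Its column shares its name with that of another control CT8 male (b), and neither could be numbered. Liver libraries also fell into a kind with low counts of mt-Nd6, a mitochondrial gene (21 libraries, 8 control and 13 MCD), and a kind with high counts (15 libraries, 10 control and 5 MCD). Library CT8 (a) is of the low kind. With library totals alone in place of TMM scaling (trimmed mean of M-values, which sets the bulk of genes level between libraries), the median change of all liver genes moved by 0.26 log2, from 0.02 to 0.27. The share of higher calls moved from 54.4% to 87.3%. In the SCN that shift was -0.005. Below, liver changes are relative to the TMM scaling.

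In the liver, the daily mean of 8 of the 10 genes differed with diet, 4 of them higher and 4 lower on MCD. The edgeR quasi-likelihood test called 46.6% of all 20249 liver genes tested, 25.3% higher and 21.2% lower, so a count of this size stands on a high background. The median change was 0.15 log2 over the 10 genes and 0.02 over all genes. The widest differences were in the oxidases, with Paox lower and Smox higher on MCD. Synthesis and acetylation genes among the 8 were higher, and all 3 genes that control ornithine decarboxylase were lower. P-values measure the spread between these libraries. In bulk tissue, fewer cells of a type and less RNA per cell cannot be told apart.

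**Figure D1:**
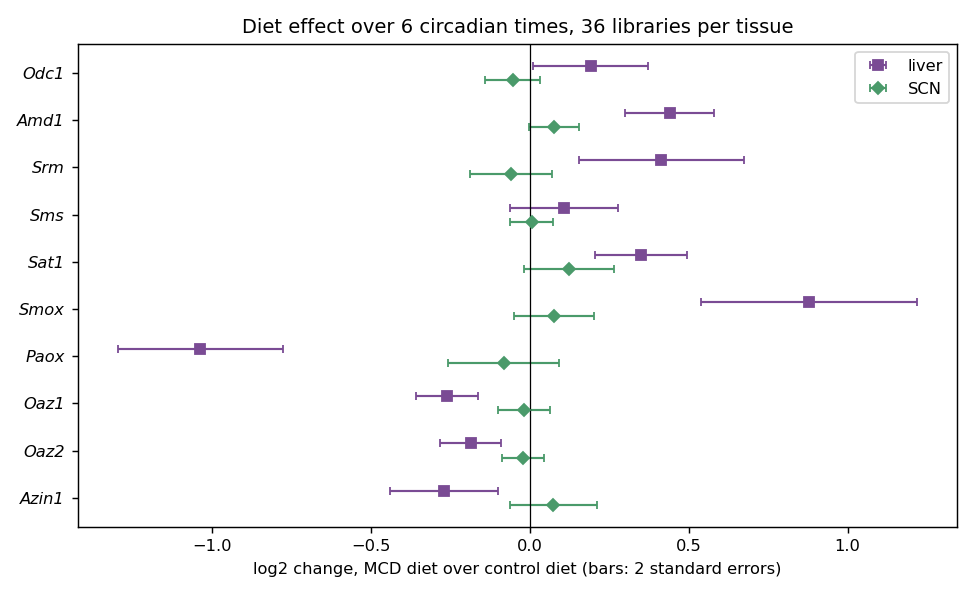
Change of each gene on the MCD diet over the control diet in liver and SCN, as log2 with bars of 2 standard errors (18 libraries per diet and tissue). In liver Paox lies near -1.04 and Smox near 0.88, while the largest change in SCN is 0.12, for Sat1.

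Among the synthesis genes, Odc1 (chr12:17544794-17551505, plus strand, GRCm38) ran from 37.0 to 112 CPM on control (CPM, counts per M of the TMM-scaled library total), with a median of 70.5 CPM, and from 47.5 to 127 CPM on MCD, with a median of 79.3 CPM. The ranges overlapped almost wholly, and the change of 0.19 log2 (SE 0.091) missed the threshold of 0.05 (edgeR, adjusted p = 0.0868). It passed in 3 other settings, with library totals alone (0.45 log2), within the high kind of library (0.33 log2) and in males alone, that is without replicate 3 (0.30 log2, adjusted p = 5.04e-05). It also passed when 1 of the female libraries MCD CT20, control CT4 or control CT8 was left out (lowest adjusted p = 0.0277).

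Amd1 (chr10:40287458-40302186, minus strand), at the step that commits S-adenosylmethionine to polyamines, rose on MCD. It lay at 15.6, 24.7 and 40.8 CPM on control (lowest, median and highest library) and at 18.3, 31.4 and 52.9 CPM on MCD. In 15 of 18 MCD libraries it exceeded the control median, and at 3 of 6 times all 3 MCD libraries lay above all 3 controls. Over all gene-time pairs in liver, 28.2% were wholly apart in this way in either direction. The change was 0.44 log2 (SE 0.070, adjusted p = 1.04e-05), and with the copies of Amd1 summed it was 0.43 log2. Amd2 changed by 0.42 log2 (SE 0.070, adjusted p = 2.22e-05), from 9.84 ± 2.81 to 13.1 ± 3.54 CPM (SD, n = 18).

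Srm (chr4:148591503-148594993, plus strand) rose from 10.6, 22 and 53.1 CPM on control to 18.8, 27.9 and 52.1 CPM on MCD. The highest libraries of both diets lay close together, while 17 of 18 MCD libraries exceeded the control median. The change of 0.41 log2 (SE 0.13) had an adjusted p of 0.00918 by edgeR, and it was 0.0846 without replicate 1 and 0.0511 with the replicate number as a block. Sms (chrX:157443855-157492287, minus strand) was, with Smox, one of the least counted members in liver, at 2.79, 3.96 and 5.33 CPM on control against 3.00, 4.34 and 5.31 CPM on MCD. The change of 0.11 log2 had an interval of -0.06 to 0.28 (2 SE, adjusted p = 0.315), and it was 0.36 log2 (adjusted p = 0.00291) with library totals alone.

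Sat1 (chrX:155213132-155216449, minus strand), the acetyltransferase, rose. It lay at 33.1, 43.6 and 77.2 CPM on control and at 45.5, 52.6 and 99.0 CPM on MCD. All 18 MCD libraries exceeded the control median, and the highest control value was that of library CT8 (a). The change was 0.35 log2 (SE 0.072, adjusted p = 0.000258), and 0.40 log2 without that library. Within the low kind of library, whose 8 controls include CT8 (a), it was 0.22 log2 (edgeR, adjusted p = 0.169).

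Smox (chr2:131491496-131525922, plus strand), the spermine oxidase, rose 1.84-fold. It lay at 2.02, 3.26 and 10.2 CPM on control and at 3.01, 6.28 and 12.7 CPM on MCD. The control value of 10.2 CPM belonged to library CT8 (a), and the next control reached 5.33 CPM. The change was 0.88 log2 (SE 0.17, adjusted p = 0.000177) with that library and 1.03 log2 (adjusted p = 1.45e-06) without it. Within the low kind of library, whose 8 controls include CT8 (a), the change was 0.72 log2 (edgeR, adjusted p = 0.0782).

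Paox (chr7:140115799-140137224, plus strand), which oxidises acetylated polyamines, fell 2.05-fold. It lay at 18.3, 57.9 and 83.7 CPM on control and at 14.5, 27.5 and 40.6 CPM on MCD. All 18 MCD libraries lay below the control median. The lowest control was again CT8 (a), and the next lay at 37.7 CPM, so that only the highest MCD value reached the other 17 controls. The change was -1.04 log2 (SE 0.13, adjusted p = 5.23e-07), -1.12 log2 without that library and -1.01 log2 with its copy summed. Echs1, whose exons overlap those of Paox, was 201 ± 22.6 CPM on control and 137 ± 13.6 CPM on MCD (SD, n = 18), a change of -0.56 log2 (SE 0.058, adjusted p = 2.06e-08). Its part in the result was not tested.

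The antizymes and their inhibitor were lower on MCD by smaller amounts. Oaz1 (chr10:80826656-80829290, plus strand), the most abundant member, lay at 135, 157 and 189 CPM on control and at 104, 131 and 158 CPM on MCD. In 13 of 18 MCD libraries it lay below every control library. Its change was -0.26 log2 (SE 0.049, adjusted p = 8.63e-05). Oaz2 (chr9:65668001-65690300, plus strand) lay at 18.3, 23.3 and 25.6 CPM on control and at 16.3, 19.8 and 23.6 CPM on MCD, a change of -0.19 log2 (SE 0.048, adjusted p = 0.00222). Azin1 (chr15:38487427-38519266, minus strand), which opposes the antizymes, lay at 65.2, 87.7 and 138 CPM on control and at 50.8, 79.5 and 103 CPM on MCD. Its change was -0.27 log2 (SE 0.085, adjusted p = 0.0106).

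The calls of these 3 genes, and the direction of Oaz2, rested on the scaling between libraries. With library totals alone, Oaz1 was at -0.01 log2 (adjusted p = 0.882), Azin1 at -0.01 (adjusted p = 0.895) and Oaz2 at 0.07 (adjusted p = 0.315). Azin1 was also not called within either kind of library (adjusted p = 0.192 and 0.0755), without replicate 1 (0.122) or without replicate 3 (0.158), and Oaz2 was not called within the high kind (0.0759). Paox, Smox, Amd1, Srm and Sat1 stayed on their side of 0 under every alternative tried.

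Markers of other cells moved with the diet in liver. All 5 macrophage markers rose, with a summed level of 247 to 583 CPM on control and 324 to 708 CPM on MCD. Of 4 blood leukocyte markers 2 rose (8.49 to 35.5 CPM and 17.6 to 57.5 CPM), and 2 of 3 erythroid markers fell (83.6 to 320 CPM and 61.8 to 201 CPM). Of 5 hepatocyte markers 3 fell (72200 to 114000 CPM and 53500 to 115000 CPM), while the median sum was 90900 and 94100 CPM. Alb and Hnf4a did not pass. Of 4 listed markers each, 2 of sinusoidal endothelium, 1 of stellate cells and 1 of cholangiocytes rose. All these counts stand beside 25.3% of all liver genes called higher and 21.2% lower. The part of these cells in the changes above was not tested.

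**Figure D2:**
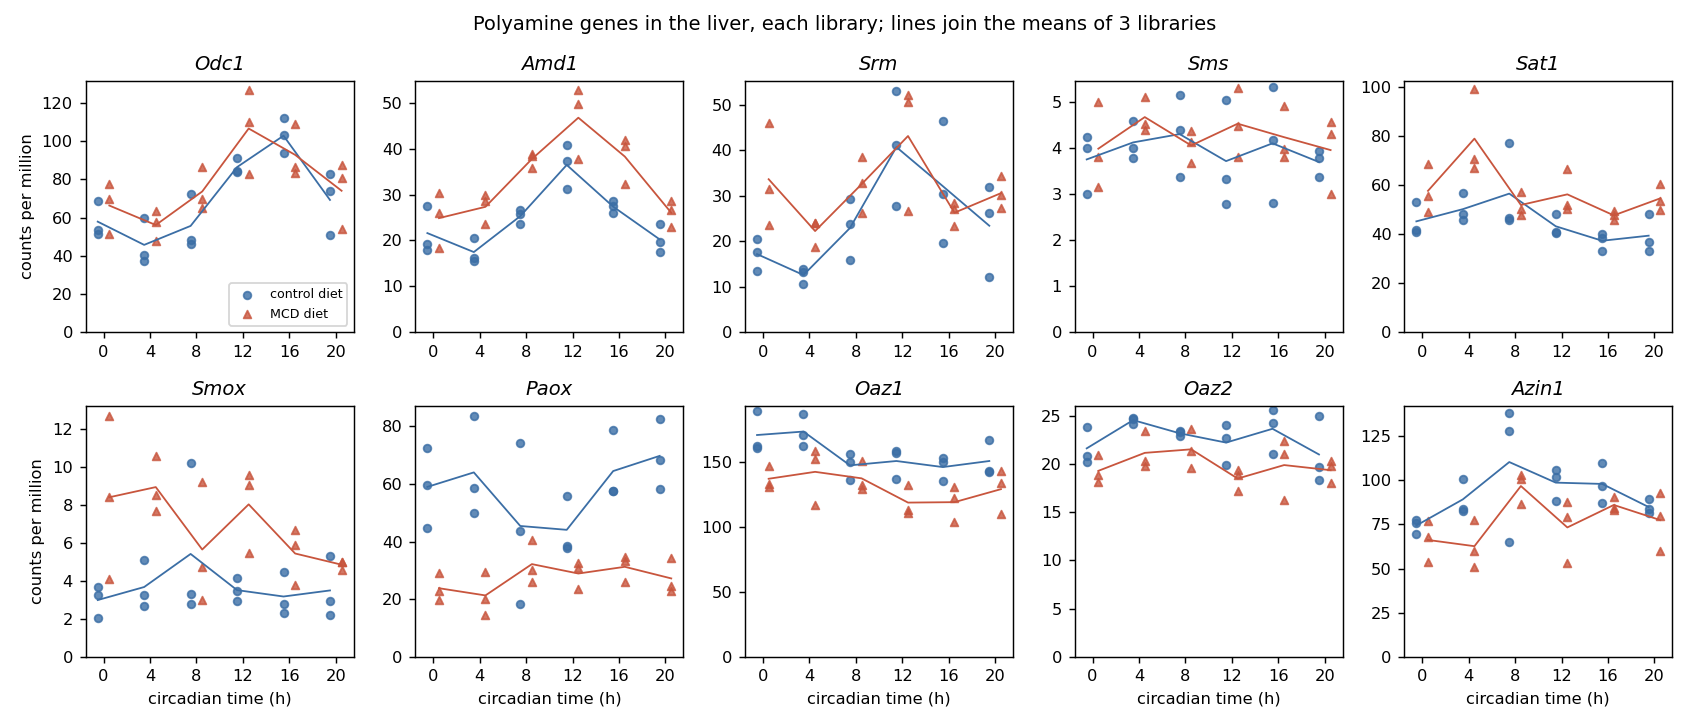
Liver CPM of the 10 genes against circadian time in h, 1 point per library, with lines through the means of 3 libraries for each diet. The mean of Paox is lower on MCD at every time, and the CT8 control group spans 18.3 to 74.2 CPM, with library (a) at its low end.

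At single times, 9 of the 60 gene-time pairs in liver passed the edgeR test, against 11.8% of such pairs over all liver genes. Paox fell at CT0, CT4, CT16 and CT20, Smox rose at CT0, CT4 and CT12, and Amd1 and Sat1 rose at CT4. Paox lay at 44.6, 59.7 and 72.6 CPM in the controls of CT0 and at 19.6, 22.8 and 29.0 CPM in the MCD libraries, a change of -1.28 log2 (adjusted p = 0.0102). At CT4 the controls lay at 49.8, 58.5 and 83.7 CPM and the MCD libraries at 14.5, 20.0 and 29.4 CPM, the widest gap of the day (-1.56 log2, adjusted p = 0.00191). At CT12, with controls at 37.7, 38.6 and 55.9 CPM and MCD libraries at 23.4, 30.7 and 32.6 CPM, the groups did not overlap, but the change of -0.60 log2 did not pass (adjusted p = 0.213). CT8, the time of library (a), was the 1 time at which Paox of the diets overlapped (18.3, 43.7 and 74.2 CPM against 25.9, 30.0 and 40.6 CPM). The change of Paox at CT8 was -0.43 log2 with that library and -0.82 log2 without it (edgeR, adjusted p = 0.649 and 0.0869). For Smox at CT8 it was -0.08 log2 with it and 0.86 log2 without it (adjusted p = 0.979 and 0.216), so the direction there rests on that library.

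Smox at CT4 lay at 2.68, 3.27 and 5.08 CPM on control and at 7.68, 8.55 and 10.6 CPM on MCD, a change of 1.33 log2 (adjusted p = 0.0318). At CT20 the values were 2.22, 2.94 and 5.33 CPM against 4.56, 5.00 and 5.00 CPM, and the groups overlapped. Sat1 at CT4 was at 45.5, 48.0 and 56.8 CPM against 66.8, 70.7 and 99.0 CPM, wholly apart, with a change of 0.66 log2 (adjusted p = 0.0107). No gene passed at CT8 by edgeR, where 1 had an unadjusted p under 0.05, DESeq2 called 1 and limma 0, and where 1.30% of all genes passed. Over all genes the count at CT8 was 263 with library CT8 (a) and 1212 without it. Oaz1, Oaz2 and Azin1 were lower on MCD at all 6 times without passing at any single time. Without library CT8 (a) 3 more pairs passed, namely Azin1 at CT4 (-0.51 log2, adjusted p = 0.0237 against 0.0905 with it), Oaz1 at CT12 (-0.35 log2, 0.0364 against 0.05) and Sat1 at CT20 (0.46 log2, 0.0301 against 0.0816). The result for Oaz1 at CT12 changed sides when any 1 of 19 libraries was left out. These counts changed with the libraries that entered the fit. Without replicate 1 no pair passed, and without replicate 2 there were 2. Leaving out the single library control CT4 2 left 5 pairs, and the Smox call at CT12 (adjusted p = 0.0488) was lost when any 1 of 27 libraries was left out. Paox lost its call at CT16 when any 1 of 6 libraries was left out (highest adjusted p = 0.181) and at CT0 without the female MCD CT0 (0.06). Smox lost it at CT0 with any 1 of 4 left out (highest 0.135) and at CT4 with any 1 of 3 (0.142). At CT4, Sat1 (0.132) and Amd1 (0.0725) each lost it with either of 2. Of the 9 calls, those of Paox at CT4 and CT20 alone held whichever single library was left out (highest adjusted p = 0.0172 and 0.0445). In the other direction, Srm at CT0 (adjusted p = 0.0522) passed when any 1 of 8 libraries was left out, Amd1 at CT16 (0.059) with any 1 of 4, Azin1 at CT4 also without MCD CT4 2, and Oaz1 at CT0 (0.0808) without MCD CT4 1.

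The diet effect on Paox in liver differed between the sexes. Every female was replicate 3 and no male was, so sex and replicate number cannot be told apart. Female controls lay at 55.9, 76.4 and 83.7 CPM (lowest, median and highest of 6) and male controls at 18.3, 53.6 and 68.4 CPM (of 12). On MCD, females lay at 19.6, 25.2 and 32.6 CPM and males at 14.5, 29.7 and 40.6 CPM. The ranges of the sexes overlapped on both diets, with the median higher in females on control and lower on MCD. The term for the difference was -0.85 log2 (females minus males, SE 0.22, adjusted p = 0.0487, edgeR), and 1.77% of all liver genes passed this test. Without library CT8 (a), a male, it was -0.74 log2 (adjusted p = 0.0167).

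The call lies at the threshold. Its adjusted p was 0.0514 with limma, 0.0502 without the low-count filter, 0.0516 with a term for the kind of library and 0.0503 with copies summed. It was 0.146 without replicate 1 and 0.516 without replicate 2, and 0.00828 with DESeq2. The other 9 genes did not pass, and for Odc1 the difference was -0.35 log2 (SE 0.18, adjusted p = 0.465). For the sex effect itself, averaged over the diets, 9.44% of liver genes passed and none of the 10 did by edgeR. Sms alone had an unadjusted p under 0.05, DESeq2 and limma called 0, and without library CT8 (a) the edgeR test called Smox, higher in females (0.45 log2, adjusted p = 0.0489, against 0.38 log2 and 0.236 with it).

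**Figure D3:**
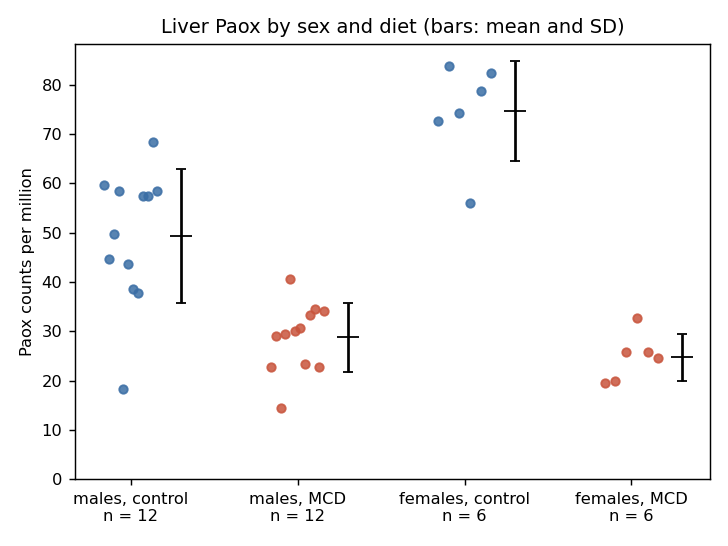
Paox in liver in CPM by sex and diet, 1 point per library, with bars for the mean and SD (6 female and 12 male libraries per diet). Female controls lie between 55.9 and 83.7 CPM, and all 18 MCD libraries lie at or below 40.6 CPM.

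In control livers 4 of the 10 genes followed a rhythm of 24 h, against 17.8% of all liver genes (edgeR, joint test of the cosine and sine components). They were Odc1, Amd1, Srm and Sat1. Odc1 lay at 37.0, 40.2 and 59.9 CPM at CT4 and at 93.6, 103 and 112 CPM at CT16, with no overlap. A cosine fit placed its peak at CT15.5 (SE 0.63 h) with a 2.16-fold range from trough to peak (adjusted p = 0.000493). Srm ran from 10.6, 13.2 and 13.9 CPM at CT4 to 27.8, 41.2 and 53.1 CPM at CT12, with a peak at CT14.0 (SE 0.84 h) and a 2.70-fold range (adjusted p = 0.000945). Amd1 peaked at CT12.8 (SE 0.75 h) with a 1.82-fold range. These synthesis genes thus peaked early in the subjective night, while Sat1, at the start of breakdown, peaked at CT5.9 (SE 1.0 h) with a 1.45-fold range (adjusted p = 0.0228). With the replicate number as a block, which left out library CT8 (a) and the other male (b), Sat1 was not called and Azin1 was. Both calls also changed without library CT8 (a) alone.

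On MCD 3 genes were called rhythmic, against 28.2% of all liver genes. Odc1 peaked at CT14.0 (SE 0.80 h, 1.76-fold, adjusted p = 0.00404), Amd1 at CT11.9 (SE 0.57 h, 1.94-fold, adjusted p = 4.81e-05) and Sat1 at CT3.5 (SE 1.4 h, 1.38-fold, adjusted p = 0.0388). Sat1 on MCD was not called with library totals alone (0.139). Oaz1 on MCD (adjusted p = 0.0884) was called with DESeq2 (0.0287), library totals alone (0.0286) and a term for the kind of library (0.0125). Srm had a range of 1.28-fold (adjusted p = 0.534). At CT0 it lay at 23.5, 31.4 and 46.0 CPM on MCD against 13.5, 17.6 and 20.4 CPM on control, wholly apart. At CT12, the time of its highest mean on both diets, it lay at 26.7, 50.6 and 52.1 CPM on MCD against 27.8, 41.2 and 53.1 CPM on control. At CT16 it lay at 23.3, 27.0 and 28.5 CPM against 19.5, 30.3 and 46.5 CPM. The groups overlapped at both times.

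The difference in rhythm between the diets was called for none of the 10 genes by edgeR, DESeq2 or limma, while 4.87% of all liver genes passed the edgeR test. Srm (adjusted p = 0.149) and Paox (adjusted p = 0.245) had an unadjusted p under 0.05. In males alone, without replicate 3, Odc1 (adjusted p = 0.00533) and Srm (adjusted p = 0.0222) were called. The rhythm calls on both diets changed with the libraries that entered the fit. On control none passed without replicate 1, with adjusted p = 0.146 for Odc1, 0.102 for Amd1, 0.137 for Srm and 0.327 for Sat1, and without replicate 2 only Amd1 passed. On MCD, without replicate 1, Odc1 (0.131) and Sat1 (0.54) lost their calls and Oaz1 (0.0215) gained one, while Sat1 was also lost without replicate 2 (0.076) or 3 (0.107). Amd1 on MCD was called in each of these. Oaz1 on MCD was called without MCD CT4 1, MCD CT12 1 or MCD CT16 1 (lowest adjusted p = 0.017). Sat1 on control lost its call when library CT8 (a) (adjusted p = 0.0694), the female control CT4 or 1 of the male controls CT16 1, CT20 1 or CT20 2 was left out, and on MCD when any 1 of 10 libraries was. Azin1 gained a call on control without library CT8 (a) (adjusted p = 0.00758 against 0.131), and Paox without the female control CT8 (adjusted p = 0.0349). On control, Oaz1 (0.0237) and Azin1 (0.0326) were called with library totals alone, and Oaz1 (0.0227) with a term for the kind of library.

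In the SCN none of the 10 genes passed the test for diet. The edgeR test, DESeq2 and limma each called 0, none had an unadjusted p under 0.05, and 0.0635% of all 15759 SCN genes passed the edgeR test, 0.0381% higher and 0.0254% lower. Paox lay at 5.47, 7.15 and 10.0 CPM on control and at 5.00, 7.12 and 9.50 CPM on MCD, and Smox at 33.2, 56.6 and 81.0 CPM against 45.5, 58.3 and 76.9 CPM. The ranges of both diets overlapped for each gene. The changes ran from -0.08 log2 for Paox (interval -0.26 to 0.09) to 0.12 log2 for Sat1 (interval -0.02 to 0.27). For Smox the interval was -0.05 to 0.20, which leaves out its liver change. At single times none of 60 pairs passed edgeR, DESeq2 or limma, 3 had an unadjusted p under 0.05, and 0.0106% of all SCN pairs passed (0.0444% at CT4, 0.00635% each at CT0, CT16 and CT20, and 0% at CT8 and CT12).

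**Figure D4:**
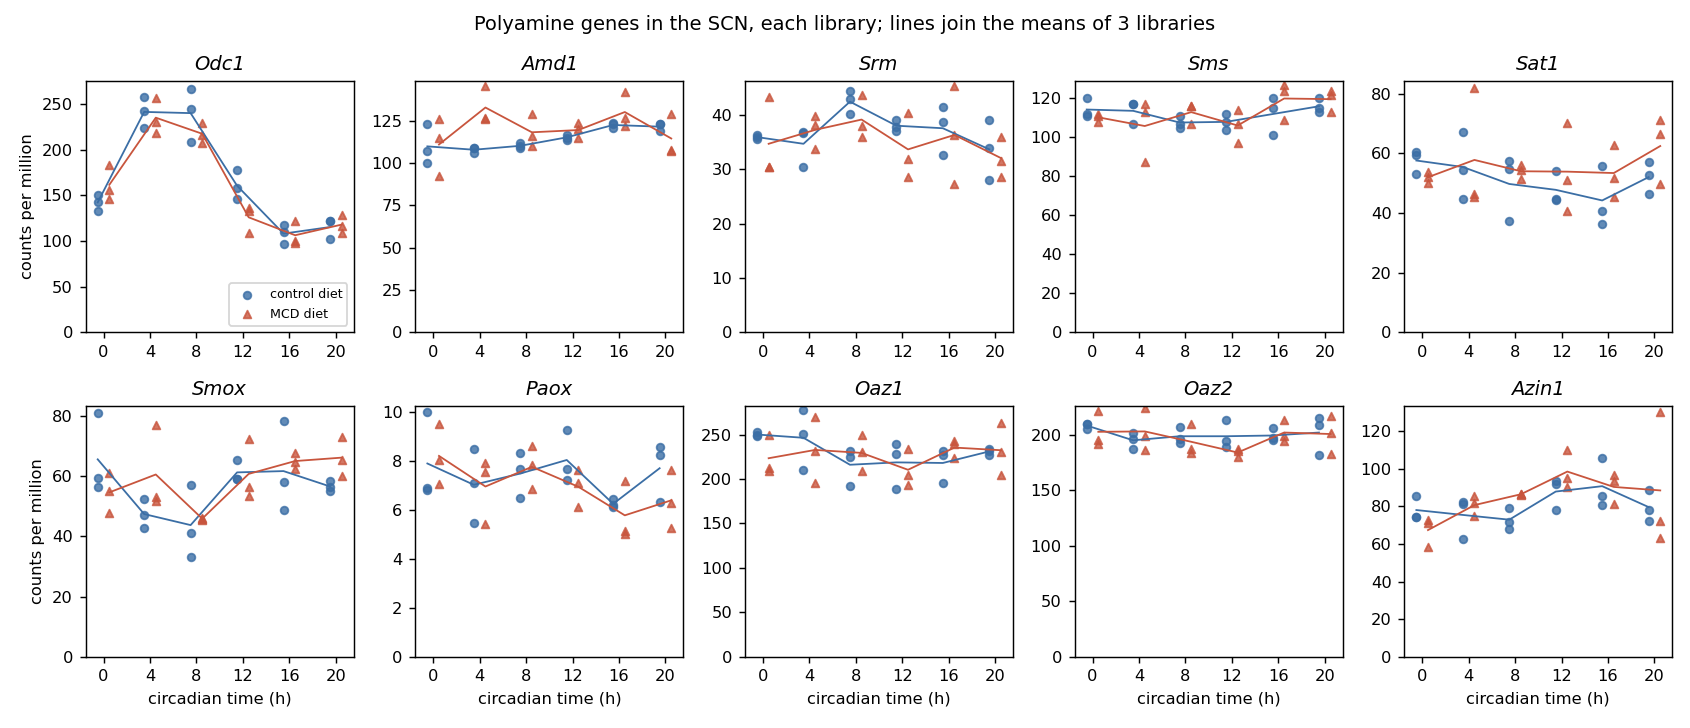
SCN CPM of the 10 genes against circadian time in h, 1 point per library, with lines through the means of 3 libraries for each diet. Odc1 is high at CT4 and CT8 on both diets (208 to 267 CPM) and low at CT16 (96.3 to 122 CPM), and over all times the ranges of both diets overlap for each gene.

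The most regular daily pattern of the 10 genes in the SCN was that of Odc1. On control it lay at 133, 143 and 151 CPM at CT0, at 224, 243 and 258 CPM at CT4, and at 209, 245 and 267 CPM at CT8. It lay at 146, 158 and 178 CPM at CT12, at 96.3, 110 and 118 CPM at CT16, and at 102, 122 and 122 CPM at CT20. The libraries of CT4 and CT8 lay above all those of the other 4 times. The cosine fit placed the peak at CT6.2 (SE 0.24 h) with a 2.44-fold range (edgeR, adjusted p = 1.25e-11), and 15.1% of all SCN genes were called on control.

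On MCD, Odc1 in the SCN lay at 146, 156 and 183 CPM at CT0, at 218, 231 and 257 CPM at CT4 and at 208, 216 and 229 CPM at CT8. It lay at 109, 133 and 136 CPM at CT12, at 97.5, 99.5 and 122 CPM at CT16, and at 109, 117 and 128 CPM at CT20. At CT12 all 3 MCD libraries lay below the 3 controls (-0.35 log2, edgeR adjusted p = 0.999), while 8.96% of all gene-time pairs in SCN were wholly apart in either direction. The peak was at CT5.0 (SE 0.33 h) with a 2.33-fold range (adjusted p = 4.12e-11), where 16.1% of all SCN genes were called. The difference in rhythm did not pass (edgeR, adjusted p = 1), while 0.0127% of all SCN genes did. Odc1 was the 1 gene of the 10 with an unadjusted p under 0.05 in that test, and DESeq2 and limma called 0. The rhythm of Odc1 on both diets was called in every alternative tried. In control mice Odc1 thus peaked in the subjective day in the SCN and in the subjective night in liver, a difference not itself tested.

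Smox was the other rhythmic gene in control SCN, with a peak at CT18.6 (SE 1.5 h) and a 1.36-fold range (adjusted p = 0.046). On MCD its peak was at CT18.3 and its adjusted p 0.0931. The call on control was lost with limma (0.0517), with the replicate number as a block (0.449), without replicate 1 (0.18), without replicate 2 (0.18) and when any 1 of 19 libraries was left out. On control Oaz1 passed without control CT12 2 (adjusted p = 0.0499). On MCD, Smox passed without the female MCD CT4 (0.0428), and Azin1 without MCD CT20 1 (0.000657). Smox on MCD also passed without replicate 3 (0.00688), and Azin1 without replicate 1 (0.00974) and with limma (0.0338).

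Sat1 and Oaz1 were higher in females than in males in the SCN. Here too all females were replicate 3, so sex and replicate number cannot be told apart. Sat1 lay at 52.8, 56.6 and 67.2 CPM in 6 control females and at 36.4, 45.5 and 59.4 CPM in 12 control males, a sex effect of 0.28 log2 over both diets (SE 0.075, adjusted p = 0.0189, edgeR). The effect for Oaz1 was 0.15 log2 (SE 0.043, adjusted p = 0.029). Over all SCN genes 9.89% passed. Without replicate 1 none of the 10 passed and without replicate 2 only 1 did. With library totals alone Oaz1 was not called (0.11 log2, edgeR adjusted p = 0.0669), while Odc1 was (-0.14 log2, 0.0384). DESeq2 called Smox as well (0.20 log2, adjusted p = 0.0374). A difference of the diet effect between the sexes was called for none of the 10 genes by edgeR, DESeq2 or limma (1 unadjusted p under 0.05), and 0% of all SCN genes passed.

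The diet effect was also compared between the tissues in 1 model of all 72 libraries. It differed for 7 of the 10 genes, against 34.7% of the 14491 genes tested in both tissues. For Amd1 the effect in SCN minus that in liver was -0.36 log2 (SE 0.078, adjusted p = 0.00028, edgeR), for Srm -0.47 (SE 0.15, adjusted p = 0.00928) and for Smox -0.80 (SE 0.19, adjusted p = 0.000659). Paox differed in the other direction, by 0.96 log2 (SE 0.16, adjusted p = 3.32e-06), as did Oaz1 by 0.25 (adjusted p = 0.00174), Oaz2 by 0.17 (adjusted p = 0.0196) and Azin1 by 0.35 (adjusted p = 0.0115). Odc1 (adjusted p = 0.0588), Sat1 (0.0916) and Sms (0.423) were not called. Sat1 was called without liver library CT8 (a) (-0.28 log2, edgeR adjusted p = 0.0177). With the replicate number as a block, which also left out that library, Sat1 was called as well (-0.30 log2). Odc1 was called with limma (-0.25 log2, adjusted p = 0.0478) and without replicate 3 (-0.40 log2, edgeR adjusted p = 6.68e-06). With library totals alone, where the median of all genes moved by -0.16 log2 and the share of calls with the larger value in SCN from 45.5% to 17.0%, Oaz1 (0.09 log2), Oaz2 (0.01) and Azin1 (0.19) lost the call, and Odc1 (-0.40), Sat1 (-0.38) and Sms (-0.25) gained one. Oaz1 (adjusted p = 0.0511), Oaz2 (0.517) and Azin1 (0.0954) were not called without replicate 3, nor Azin1 without replicate 1 (0.135), nor Srm without replicate 1 (0.0759) or 2 (0.064). Libraries of both tissues entered the model as if from different mice, since the labels do not say which came from the same mouse.

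On the control diet the level of all 10 genes differed between the tissues, as it did for 90.4% of all genes tested (edgeR). Odc1 was not called with the replicate number as a block, nor Srm without replicate 1 or 2. With library totals alone the median of all genes (SCN minus liver) moved by 0.71 log2, from 0.04 to 0.75, and the share of calls higher in SCN from 51.2% to 70%. The folds that follow are relative to the TMM scaling. Sms was 15.5-fold higher in SCN than in liver, Smox 8.09-fold, Oaz2 4.45-fold, Amd1 2.38-fold and Odc1 1.23-fold. Paox was 14.2-fold higher in liver, Azin1 2.29-fold and Sat1 1.80-fold. The excess of Paox (-3.11 log2) and Azin1 (-0.48 log2) in liver was smaller with library totals alone, and Sat1 was then not called (-0.15 log2, adjusted p = 0.124). Oaz1 was 1.37-fold and Srm 1.27-fold higher in liver with TMM scaling, but with library totals alone both were called higher in SCN (Oaz1 0.25 log2, adjusted p = 9.45e-07, and Srm 0.35 log2, adjusted p = 0.00519), so their direction rests on the scaling. Spermine synthase and spermine oxidase were thus the pair with the largest excess in SCN, and polyamine oxidase had the largest excess in liver.

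Between genes, levels were compared per kb of exon, with all annotated exons of a gene merged. For this CPM was TMM-scaled over both tissues together, so values in this and the next paragraph differ from the CPM given above. The longest protein-coding transcript is shorter by unequal amounts, as for Sat1 (1162 against 2774 bases) and Paox (4655 against 4907 bases). The order of genes thus rests on the length taken, and no other length was tested. In control liver Oaz1 was highest at 102 ± 10.2 CPM per kb (SD, n = 18), apart from the next gene by more than the sum of both SDs. Odc1 (33.9 ± 10.8), Sat1 (27.1 ± 6.18), Srm (25.7 ± 12.6), Azin1 (24.6 ± 5.07), Paox (19.6 ± 5.93), Oaz2 (12.6 ± 1.22) and Amd1 (11.6 ± 3.21 CPM per kb) followed, each within the spread of its neighbour. Below them, and apart from Amd1, lay Smox (1.58 ± 0.80) and Sms (1.09 ± 0.21 CPM per kb), the enzymes that break down and make spermine.

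In control SCN Oaz1 was again first at 75.3 ± 7.11 CPM per kb, apart from Oaz2 at 56.2 ± 2.82. Odc1 (41.4 ± 14.3) lay within the spread of both Oaz2 and Amd1 (27.2 ± 1.73), and Amd1 was apart from Srm (19.5 ± 2.27). Sms (15.6 ± 0.87), Sat1 (15.4 ± 2.45), Smox (12.0 ± 2.47) and Azin1 (10.8 ± 1.35 CPM per kb) came next, each within the spread of its neighbour. Of these Sms, but not Sat1, was apart from Srm when merged exons were the length. Paox closed the order at 1.26 ± 0.21 CPM per kb, apart from Azin1.

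**Figure D5:**
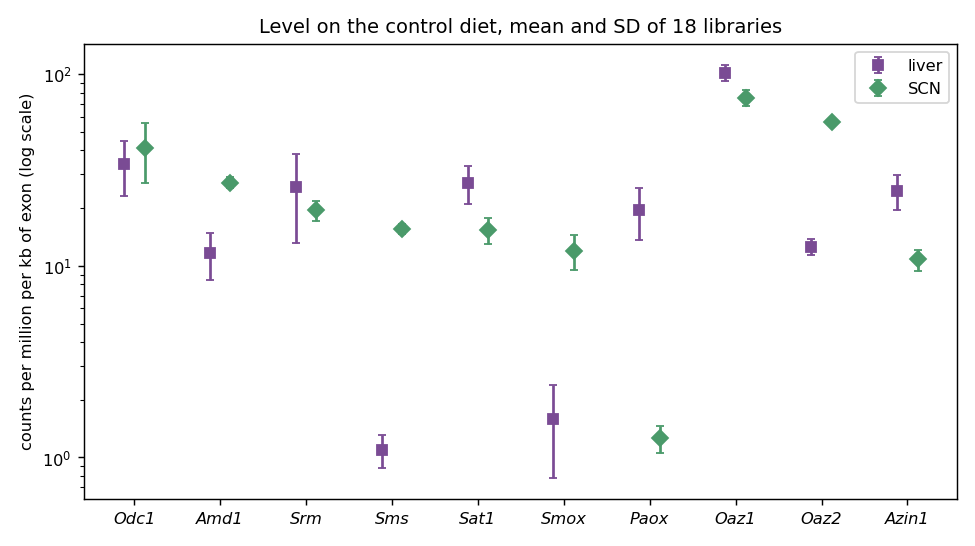
Level of the 10 genes on the control diet in liver and SCN, in CPM per kb of merged exons on a log axis, as mean and SD of 18 libraries. CPM here is TMM-scaled over both tissues together. Paox is high in liver (19.6) and low in SCN (1.26), while Sms and Smox are at 1.09 and 1.58 in liver and at 15.6 and 12.0 in SCN.

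Exon usage was tested to see whether a part of a gene changed against the rest of it. In liver 1 of the 10 genes passed, Paox (edgeR diffSpliceDGE, adjusted p = 0.00137), against 3.79% of 14108 genes. The leading part, the sixth of 16 exon bins (parts of exons, positions not analysed here), was 1.05 log2 higher relative to the whole gene on MCD. It held few reads. It took 0.157%, 0.396% and 1.82% of the Paox bin counts in 16 control libraries (5 to 26 counts, median 11.5) and 0.44%, 1.07% and 3.38% in 18 MCD libraries (5 to 35 counts, median 17.5). The counts in this bin thus overlapped, while the total of the gene was lower on MCD. The adjusted p was 0.213 without replicate 2 and 0.363 without replicate 3. In SCN none passed the edgeR test, none had an unadjusted p under 0.05, and 0.0458% of all genes passed.

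Genes next to the pathway were counted from lists chosen for their function. Of 6 other polyamine enzymes and paralogs, 2 rose and 2 fell in liver (median -0.05 log2, 0.02 over all genes). Of all liver genes 46.6% were called, 25.3% higher and 21.2% lower, and the counts of this and the following lists stand beside that share. Amd2 rose, and so did Aoc1, the diamine oxidase that degrades putrescine, which was barely counted (0.16 ± 0.17 and 0.28 ± 0.10 CPM, SD, n = 18). Agmat, which forms putrescine from agmatine, was 110 ± 15.7 CPM on control and 82.2 ± 8.45 CPM on MCD, a change of -0.42 log2 (adjusted p = 4.39e-07), and Sat2 changed by -0.27 log2. Of 9 measured genes of polyamine transport, 3 rose and 3 fell (median 0.14). Slc3a2, a heavy chain of amino acid exchangers linked to putrescine efflux, went from 33.8 ± 5.11 to 55.3 ± 14.0 CPM (0.70 log2, adjusted p = 5.83e-07). Slc22a3, an organic cation transporter, went from 8.65 ± 4.95 to 4.11 ± 2.62 CPM (-1.10 log2, adjusted p = 0.0124). Atp13a2, the lysosomal polyamine exporter, changed by 0.26 log2 and Slc18b1, a vesicular polyamine transporter, by -0.22 log2.

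Of the genes around S-adenosylmethionine and ornithine, 2 that were called in liver are given here. Mat2a, an S-adenosylmethionine synthetase, went from 71.0 ± 13.7 to 225 ± 56.5 CPM (SD, n = 18), a change of 1.65 log2 (SE 0.071, adjusted p = 5.23e-15) and higher on MCD at all 6 times. Otc, which removes ornithine into the urea cycle, went from 385 ± 35.6 to 225 ± 33.5 CPM (-0.78 log2).

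Of the 5 genes that salvage methylthioadenosine, the by-product of both aminopropyl transfers, 2 rose and 2 fell (median 0.16), beside 25.3% and 21.2% of all liver genes. Mtap, the first enzyme of the route, changed by 0.32 log2 (adjusted p = 6.07e-06), Mri1 by 0.22, Apip by -0.54 (adjusted p = 2.37e-07) and Adi1 by -0.21. Of the 4 genes of hypusine synthesis, in which spermidine modifies the translation factor eIF5A, Dhps (0.16 log2, adjusted p = 0.00972) and Dohh (0.13 log2, adjusted p = 0.00502) rose, beside 25.3% of all liver genes, and Eif5a did not pass (283 ± 35.3 and 286 ± 35.2 CPM). In the SCN, of the 21 genes of the 5 lists that were measured, Mat2a alone was called (142 ± 13.8 and 191 ± 84.8 CPM, 0.31 log2, adjusted p = 0.015), and it was higher on MCD at 4 of 6 times.

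The genes whose log2 CPM followed that of Odc1 and Amd1 most closely are given as a description over 36 libraries per tissue, which share their preparation and differ in depth. In liver, 2 of the 3 nearest Odc1 were its own copies Gm7993 (r = 0.90) and Gm17709 (r = 0.89), followed by Hsph1, a heat shock protein (r = 0.86). Near Amd1 were its copies Amd2 (r = 0.98), Amd-ps4 (r = 0.94) and Amd-ps3 (r = 0.93), with which it shares sequence and so may share reads. In the SCN, Odc1 went with Creb3l1, a transcription factor of the endoplasmic reticulum (r = 0.95), Per1, a core component of the circadian clock (r = 0.95), and Rcan1, an inhibitor of calcineurin (r = 0.95). For Amd1 in the SCN the nearest were Amd2 (r = 0.71), Taf4 (r = 0.67) and Zfp882 (r = 0.64).

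Promoters were searched for 4 motifs on both strands, from 250 bases before to 50 bases after each start in RefSeq (GRCm38.p6). Of the 10 members 8 had an entry, with 10 promoters in all. The E-box CACGTG, bound by CLOCK and BMAL1, was in 1 of these, against 7.15% of 32851 promoters. It lies 196 bases before the start of Sms (chrX:157492458-157492503, minus strand), whose liver and SCN levels were not called rhythmic, and is shown in capitals.
Sms promoter: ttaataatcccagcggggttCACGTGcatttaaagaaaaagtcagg
The C/EBP-ATF response element TGATGNAA (3.97% of promoters), the D-box TTATGNAA (3.38%) and the ROR element TAGGTCA (2.61%) were in none of them. A match is a description of letters, and no match says only that these letters are not in this window.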

How the data were processed

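RNA-seq was measured in 72 libraries of liver and SCN. The authors deposited gene counts as 1 table for each tissue and exon-bin counts as 1 file for each library, whole numbers without normalization, per the file headers. The submitters' processing notes name Trimmomatic, HISAT2, StringTie, DESeq2 and build GRCm39, with no role stated, and positions and sequences here come from GENCODE M21 and RefSeq on GRCm38, matched by gene ID or symbol. Genes were tested with edgeR 4.0.16 in R 4.3.3 (quasi-likelihood F test, TMM scaling, low-count filter at a minimum count of 10, robust dispersion) in 1 model per tissue of 12 diet and time groups and sex. Benjamini-Hochberg adjustment ran over all genes tested, with a threshold of 0.05. The diet effect is the mean over 6 times of MCD minus control, and a 24 h cosine and sine component tested rhythm. SE is the log2 change divided by the square root of F. Peaks came from a cosine fit on log2 CPM with a prior count of 2. Replicates differed by more than sampling noise (chi-square per gene at least 29.3 in liver and 24.1 in SCN). Exon bins were tested with diffSpliceDGE in 34 liver and 36 SCN libraries, since the files of 2 liver controls of CT0 end early. Alternatives were DESeq2 1.42.0, limma 3.58.1, library totals, no filter, replicate block, kind of library, and leaving out libraries, and the summing of near-identical copies was chosen after seeing the data. The diet test, the control rhythm test and the liver exon test were tried on simulated counts, and the other tests were not. For diet and rhythm, 10 to 13.8% of simulated DESeq2 calls were false. This share was 1.69 to 4.57% for edgeR and 3.33 to 6.54% for limma. All 10 members are named. From each other list the text names the genes that passed the liver diet test, at most the 4 with the largest change, and Eif5a was named after its values were seen. The members and lists were chosen with earlier results of these data known. Some genes of these lists are not reported here.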

Additional observations from a re-analysis of the deposited data

Results flagged for a closer look

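The diet effect differed between liver and SCN for 7 genes by the test of the difference itself. In log2, SCN minus liver, it was -0.36 for Amd1, -0.47 for Srm, -0.80 for Smox, 0.96 for Paox, 0.25 for Oaz1, 0.17 for Oaz2 and 0.35 for Azin1. With library totals alone the values of Oaz1, Oaz2 and Azin1 did not pass (0.09, 0.01 and 0.19). Srm was not called without replicate 1 (edgeR, adjusted p = 0.0759) or 2 (0.064), Azin1 without replicate 1 (0.135) or 3 (0.0954), and Oaz1 (0.0511) and Oaz2 (0.517) without replicate 3. Every female was replicate 3, so sex and replicate number cannot be told apart. In liver the diet effect on Paox differed between the sexes by -0.85 log2 (females minus males), by the test of the sex-by-diet term (edgeR, adjusted p = 0.0487). This call lies at the threshold and was lost with limma (0.0514), without the low-count filter (0.0502), with a term for the kind of library (0.0516), with copies summed (0.0503) and without replicate 1 (0.146) or 2 (0.516).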

How the results depend on the processing

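Of 230 diet changes of the 10 genes recomputed under alternatives, 209 kept their direction and their side of the threshold, 11 lost the call, 4 gained one and 6 changed sign, and the cause was not tested. The changes of sign were Oaz2 in liver with library totals alone (0.069 log2) and SCN genes close to 0: Sms with the replicate number as a block (-0.001), and over the 3 replicate numbers left out in turn (-0.007 to 0.027), and Oaz1 (-0.054 to 0.005) and Oaz2 (-0.075 to 0.006) over the same. Within the low kind of library 5 genes were called for diet in liver, with fewer libraries. At single times in liver, DESeq2 called 16 pairs and library totals alone 17. Rhythm in the SCN was called for 1 gene on control with limma and with the replicate block, and for 2 genes on MCD with limma. The difference of the diet effect between the sexes in liver was called for 0 genes with limma, without the filter, with a term for the kind of library and with copies summed, and the sex effect in liver for 1 gene with copies summed (Sms). Leaving out single libraries or replicate numbers gave 6 to 9 genes for the liver diet effect, 0 to 12 pairs at single times, 0 to 5 genes for liver rhythm on control, 2 to 3 on MCD and 0 to 2 for their difference. In SCN it gave 1 to 3 genes for rhythm on control, 1 to 2 on MCD and 0 for diet. For sex, exon usage and the tissues only replicate numbers and, in liver, a control CT8 library were left out. This gave, in liver, 0 to 1 genes for sex, 0 to 1 for the sex difference by diet and 0 to 1 for exon usage. In SCN, replicate numbers 1 and 2 left out gave 0 to 1 for sex. Between tissues the counts were 5 to 8 genes for the diet effect and 9 to 10 for the level. For all genes, diet calls in SCN numbered 48 with DESeq2 and 20 with limma, against 10 with edgeR. Replicate numbers correlated above 0.1 in 15 of 16 liver pairs of groups (0.065 to 0.532) and 8 of 16 in SCN (-0.087 to 0.285). All 6 liver pairs of replicate 3, the females, lay at 0.307 to 0.532, and those of the male numbers at 0.065 to 0.42. Of 30 libraries 23 in liver and 17 in SCN correlated best with their own number on the other diet. Since not every pair passed 0.1 and no label ties the numbers, they were not taken to pair the samples. With the replicate block, which left out both control CT8 males, the diet call of Srm in liver (0.32 log2) and the control rhythm of Sat1 were lost. The control rhythm of Azin1 and the tissue difference of Sat1 were gained. These changes, save that of Srm, also came without library CT8 (a) alone. Depth was not changed in any alternative, and the least counted genes (Sms and Smox in liver, Paox in SCN) are measured on the fewest reads.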
